A study of Mus musculus with 11 samples.

Results

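The olfactory mucosa is known above all for its sensory neurons, but whole-tissue RNA also carries transcripts of the macrophages that live in it. Here 10 macrophage and leukocyte genes were followed: the complement genes C1qa, C1qb and C1qc, the receptors Csf1r, Cx3cr1 and Ptprc, the adaptor Tyrobp, the lysosomal genes Cd68 and Lyz2, and the cytoskeletal gene Aif1. They were chosen by symbol, with earlier results of these data known. All 10 were among the 24421 entries of the read count table and all 10 were among the 16574 genes that passed the filter on low counts.

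The libraries profile the main olfactory epithelium (MOE) of a mouse line that lacks the cluster of olfactory Taar (trace amine-associated receptor) genes, and they served the study as a check of that deletion. RNA-seq was run on whole MOE of 3 wild-type, 4 heterozygous and 4 homozygous cluster knockout samples, 11 libraries in all, and the labels name no treatment. The labels put every sample in the C57BL/6 strain at postnatal day 1 to 2, whereas the reporting part of the paper gives an older age and a background mixed with 129 for this line, and which applies was not settled here. The deletion is carried in the germline and is thus not restricted to neurons or to macrophages. The labels state neither sex nor litter, and they number the replicates without saying whether each came from its own animal, so p-values measure the spread between these samples, which may in part be technical.

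The libraries held 9239866 to 14632525 counts. Reads on the Taar2 to Taar9 genes numbered 87 to 119 in the wild-type, 31 to 96 in the heterozygous and 1 to 3 in the homozygous libraries, as the genotype labels state. Several library properties ran alongside genotype or cut across it. Xist, the RNA of the inactive X chromosome, stood at 1327 to 4297 CPM (counts per 1e+06 counts) in all 3 wild-type libraries, in heterozygous replicate 3 and in homozygous replicate 1, and at 0.88 to 1.70 CPM in the other 6, where the Y-linked gene Ddx3y was at 43.5 to 110 CPM. By the sign of the first principal component (47.4% of the variance) the libraries fell into a set 1 of 6 (2 of each genotype) and a set 2 of 5 (1 wild-type, 2 heterozygous and 2 homozygous). In homozygous replicate 2 the ribosomal RNA entry Rn45s took 25.8% of the counts, against 0.0848% to 0.786% elsewhere.

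As background, tissue macrophages depend on signalling through the receptor that Csf1r encodes, and they clear dying cells and debris. In the olfactory epithelium neurons are replaced throughout life, so there is a steady supply of cells to clear. C1q, assembled from the products of C1qa, C1qb and C1qc, is the recognition molecule that starts the classical complement pathway and tags material for uptake, and tissue macrophages are a main source of it.

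The 10 genes together took 0.0329% to 0.0574% of all counts. Levels between genes can be compared only per length, so CPM was divided by the length in kilobases of all annotated exons of each gene. On this scale Lyz2 was highest, with a median of 105 CPM per kb over the 11 libraries (range 63.3 to 219.7). C1qb followed at 39.0 CPM per kb, then Tyrobp at 36.8 and C1qa at 36.3. C1qc stood at 17.3, Cd68 at 15.6 and Csf1r at 11.3 CPM per kb. Cx3cr1 had 4.42, Aif1 1.77 and Ptprc 0.503 CPM per kb.

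Parts of this order could not be resolved. Tyrobp was above C1qa in 4 of 11 libraries and C1qc above Cd68 in 7 of 11, whereas Lyz2 was above C1qb, C1qa above C1qc, Csf1r above Cx3cr1 and Cx3cr1 above Aif1 in 11 of 11 without overlap of their ranges. The annotated exons of Ptprc sum to 18313 bases over all transcripts, which lowers its value per kb.

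**Figure D1:**
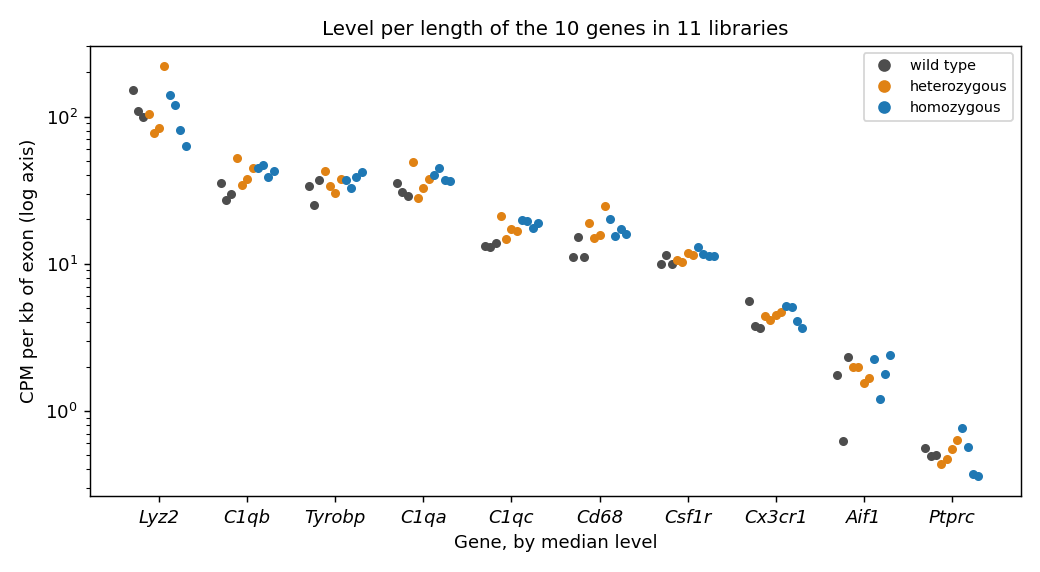
Level of the 10 genes in each of the 11 libraries in CPM per kb of annotated exon, on a log axis, ordered by median, with 1 point per library coloured by genotype. Lyz2 lies above all others with a median of 105, and Ptprc lies lowest with a median of 0.503.

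Markers outside the 10 genes were read as a check on the label. All 20 further macrophage genes of a core list were in the table and passed the filter, among them Adgre1 (the F4/80 antigen) at 6.86 to 12.98 CPM and Mrc1 (the mannose receptor) at 19.4 to 45.5 CPM. Its abundant members included the transcription factor genes Maf (27.6 to 63.9 CPM) and Sall1 (34.0 to 66.6 CPM), and these are also expressed outside macrophages. The summed level of the core list was 335 to 438 CPM in the wild type, 361 to 490 CPM in the heterozygous and 349 to 525 CPM in the homozygous libraries. Ptprc marks all leukocytes, Tyrobp and Aif1 are shared with other myeloid cells, and Lyz2 is also expressed by neutrophils. The list for T and NK cells summed to 5.53 to 8.07 CPM and that for B cells to 2.87 to 5.59 CPM. The dendritic cell list summed to 12.2 to 26.3 CPM and the mast cell list to 6.82 to 30.1 CPM. These lists differ in the number and length of their genes, so their sums were not ranked against the macrophage genes. The neutrophil and monocyte list summed to 146 to 675 CPM, most of it in every library from Ltf (94.9 to 623 CPM), the lactoferrin gene, which glands also express. Its next most abundant genes, S100a9 and S100a8, were at 10.3 to 58.6 CPM and 7.46 to 28.3 CPM. In whole tissue, a change in the number of macrophages and a change in the RNA of each macrophage cannot be told apart.

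C1qc and C1qb had the lowest unadjusted p of the 10 genes in the comparison of homozygous with wild-type samples. C1qa (chr4:136895917-136898803), C1qb (chr4:136880129-136886187) and C1qc (chr4:136889804-136893065) lie side by side on the minus strand of chromosome 4 (GRCm38, the same assembly as mm10) within 18.7 kb, each in 3 exons, and no other annotated gene shares bases with their exons. C1qc, which encodes the C chain, was at 25.7, 25.2 and 26.8 CPM in wild-type replicates 1 to 3. It was at 40.9, 28.6, 33.4 and 32.2 CPM in heterozygous replicates 1 to 4 and at 38.5, 37.7, 34.0 and 36.4 CPM in homozygous replicates 1 to 4. Every heterozygous and every homozygous library was above the highest wild-type library, while the heterozygous and homozygous values overlapped.

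The mean of C1qc was 25.9 ± 0.835 CPM in the wild type (SD, n = 3), 33.7 ± 5.17 in the heterozygous (SD, n = 4) and 36.7 ± 1.97 in the homozygous samples (SD, n = 4). Homozygous samples were 1.42-fold above wild type (log2 fold change 0.50, SE 0.14, 95% confidence interval 0.19 to 0.81). By edgeR's quasi-likelihood F-test the unadjusted p was 0.0043, and the p adjusted over all genes by the Benjamini-Hochberg method was 0.996. Heterozygous samples were 1.30-fold above wild type (log2 fold change 0.38, SE 0.14, unadjusted p by edgeR 0.0198). With each of the 11 libraries left out in turn, the unadjusted p of C1qc by edgeR was 0.0023 to 0.0175 for homozygous against wild type, and 0.010 to 0.0653 for heterozygous against wild type. The latter was over 0.05 in 3 of 11 cases, without wild-type replicate 1 (0.0514), wild-type replicate 2 (0.058) or heterozygous replicate 1 (0.0653), and it was 0.0502 with the replicate block across the 11 libraries and 0.0517 in the fit of the 2 genotypes. So the homozygous difference in C1qc exceeded the spread between replicates as a single gene, and it did not pass once all 16574 tests were counted.

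C1qb, which encodes the B chain, was at 38.5, 29.7 and 32.5 CPM in wild-type replicates 1 to 3. In heterozygous replicates 1 to 4 it was at 56.8, 37.5, 41.0 and 48.9 CPM, and in homozygous replicates 1 to 4 at 49.0, 51.0, 42.5 and 46.1 CPM. All homozygous libraries were above all wild-type libraries, and heterozygous replicate 2 fell within the wild-type range. Homozygous samples were 1.40-fold above wild type (log2 fold change 0.49, SE 0.17, 95% confidence interval 0.13 to 0.85, unadjusted p by edgeR 0.0123, adjusted 0.996). The heterozygous difference was 1.37-fold (log2 fold change 0.46, SE 0.17, unadjusted p by edgeR 0.0176). Without wild-type replicate 2, the library with the lowest C1qb, the unadjusted p by edgeR was 0.0572 in homozygous and 0.0761 in heterozygous samples, and without heterozygous replicate 1 the heterozygous p was 0.0567.

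C1qa, which encodes the A chain, was at 36.7, 32.0 and 30.3 CPM in wild-type replicates 1 to 3. It reached 50.8 CPM in heterozygous replicate 1 and 29.2, 34.2 and 39.1 CPM in heterozygous replicates 2 to 4, and it was at 41.5, 46.7, 38.6 and 37.8 CPM in homozygous replicates 1 to 4. The homozygous libraries were again all above the wild type, but heterozygous replicate 2 was the lowest of all 11. The log2 fold change of homozygous against wild type was 0.32 (SE 0.18, 95% confidence interval -0.083 to 0.72, unadjusted p by edgeR 0.109).

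Summed over the 3 genes, C1q was at 92.5 ± 7.43 CPM in the wild type (SD, n = 3), 118 ± 22.7 in the heterozygous (SD, n = 4) and 125 ± 9.04 CPM in the homozygous samples (SD, n = 4). The sums ranged from 86.9 to 100.9, from 95.2 to 148 and from 115 to 135 CPM, so the homozygous and wild-type sums did not overlap. Set against Csf1r in the same library, the C1q sum was 1.32 to 1.76 times the CPM of Csf1r in the wild type, 1.601 to 2.41 times in the heterozygous and 1.72 to 2.03 times in the homozygous libraries, and here the 3 ranges overlapped.

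Library sets and Xist were set beside the C1q values. Within set 1 the mean of C1qc was 25.4 CPM in the wild type, 32.8 in the heterozygous and 38.1 in the homozygous samples (n = 2 each). Within set 2 it was 26.8 CPM (n = 1), 34.7 (n = 2) and 35.2 CPM (n = 2), so homozygous and heterozygous means were above wild type in both sets. For C1qb the corresponding means were 34.1, 45.0 and 50.0 CPM in set 1 and 32.5, 47.2 and 44.3 CPM in set 2. Among the 5 libraries with high Xist, C1qc was at 33.4 CPM in heterozygous replicate 3 and at 38.5 CPM in homozygous replicate 1, both above the 3 wild-type values. C1qb was at 41.0 and 49.0 CPM there, also above the wild type. C1qa was at 34.2 and 41.5 CPM, the former below wild-type replicate 1 (36.7 CPM). This rests on 1 library per knockout genotype. No wild-type library had low Xist, so genotype and this property cannot be fully told apart. With the Xist level in the fit as a covariate, the log2 fold change of C1qc in homozygous samples was 0.54 (SE 0.19, unadjusted p by edgeR 0.0145), and that of C1qb 0.44 (SE 0.22, unadjusted p by edgeR 0.0688).

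Skeletal muscle genes, from tissue next to the mucosa, differed widely in level between libraries, and the ranges of the 3 genotypes overlapped. Their sum was 6.95 to 56.6 CPM in the wild-type, 15.9 to 1624 CPM in the heterozygous and 20.4 to 760 CPM in the homozygous libraries. Of 8 muscle genes, 5 were higher in homozygous samples at an unadjusted p under 0.05 (1.81% of all genes) and 8 in heterozygous samples (1.75% of all genes), and 0 passed after adjustment by edgeR. Acta1, the skeletal actin gene, had log2 fold changes of 4.10 and 4.58 (unadjusted p by edgeR 0.0304 and 0.02). In heterozygous replicates 1 and 3 and homozygous replicate 4 the muscle sum was within the wild-type range, at 18.4, 15.9 and 20.4 CPM, and C1qc was at 40.9, 33.4 and 36.4 CPM there. The part of muscle in the values of the 10 genes was not tested.

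The start regions of C1qb, C1qc and Cd68, the 3 genes with an unadjusted p under 0.05 in at least one comparison, are shown so that the letters near their starts can be read beside these values. They are the RefSeq promoter windows (GRCm38.p6) of 250 bases before and 50 bases from the start on, all on the minus strand and written 5′ to 3′, at chr4:136886151-136886450, chr4:136892865-136893164 and chr11:69666121-69666420. Capitals mark matches on either strand to GAGGAA, the core bound by the myeloid factor PU.1, which reads TTCCTC on the opposite strand, and to TTGCNNAA, a form of the C/EBP motif.
C1qb: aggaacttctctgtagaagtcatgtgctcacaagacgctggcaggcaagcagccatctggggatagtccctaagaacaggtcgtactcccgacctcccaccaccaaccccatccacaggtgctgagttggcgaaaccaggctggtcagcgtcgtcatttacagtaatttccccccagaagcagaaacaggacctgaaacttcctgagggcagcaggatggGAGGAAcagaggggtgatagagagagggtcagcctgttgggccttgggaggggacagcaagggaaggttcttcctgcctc
C1qc: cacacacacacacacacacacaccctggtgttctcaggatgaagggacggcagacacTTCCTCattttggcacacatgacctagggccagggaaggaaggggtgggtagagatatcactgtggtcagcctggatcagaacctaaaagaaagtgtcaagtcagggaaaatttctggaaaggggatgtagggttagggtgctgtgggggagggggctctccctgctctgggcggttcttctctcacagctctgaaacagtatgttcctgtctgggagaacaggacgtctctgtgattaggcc
Cd68: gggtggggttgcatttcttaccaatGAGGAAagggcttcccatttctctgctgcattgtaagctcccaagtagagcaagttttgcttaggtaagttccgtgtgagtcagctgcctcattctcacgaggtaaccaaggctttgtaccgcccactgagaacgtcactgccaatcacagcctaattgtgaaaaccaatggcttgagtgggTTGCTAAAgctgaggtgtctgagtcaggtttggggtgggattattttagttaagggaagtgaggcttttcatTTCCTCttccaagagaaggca

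In C1qb the GAGGAA match began 30 bases before the start, and in C1qc it began 193 bases before the start on the reverse strand. Cd68 held a match 225 bases before the start on the forward strand, another from base 30 of the transcript on the reverse strand, and the one TTGCNNAA match, 43 bases before the start. Windows were used for 7 of the 10 genes (C1qb, C1qc, Cx3cr1, Ptprc, Cd68, Lyz2 and Aif1). Windows on chromosome 18, where Csf1r lies, were left out for the 10 genes but kept in the shares over all windows. Of these, 5 held GAGGAA, against 28.3% of all 32851 windows, 1 held TTGCNNAA, against 10.8%, and 1 (Ptprc) held TATAAA, against 13.6%. No match was found for any of the 3 motifs in the windows of Cx3cr1 and Lyz2. These are matches of letters and not measured binding sites.

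Among the receptors, Csf1r (chr18:61100598-61132149), the receptor for the growth factors that maintain macrophages, was the steadiest of the 10 genes. It was at 57.4, 66.0 and 57.9 CPM in wild-type replicates 1 to 3, at 61.7, 59.5, 67.9 and 66.5 CPM in heterozygous replicates 1 to 4 and at 74.8, 66.9, 65.1 and 64.9 CPM in homozygous replicates 1 to 4. The highest library was 1.30 times the lowest, and the 3 genotypes overlapped. The log2 fold change of homozygous against wild type was 0.17 (95% confidence interval -0.083 to 0.42, unadjusted p by edgeR 0.169). Of the exon bases of Csf1r, 15.1% are shared with Hmgxb3 on the opposite strand, and the strand setting of the counting was not stated.

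Cx3cr1 (chr9:119901616-120069879), the receptor for fractalkine, was at 25.1, 16.9 and 16.5 CPM in wild-type replicates 1 to 3. It was at 19.9, 18.7, 20.2 and 21.2 CPM in heterozygous replicates 1 to 4 and at 23.1, 23.0, 18.4 and 16.4 CPM in homozygous replicates 1 to 4. Wild-type replicate 1 was the highest library of all and homozygous replicate 4 the lowest. The homozygous log2 fold change was 0.053 (95% confidence interval -0.37 to 0.47). Of its exon bases 1.73% are shared with an antisense transcript.

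Ptprc (chr1:138062861-138175708), which encodes the pan-leukocyte phosphatase CD45, was at 10.2, 8.98 and 9.20 CPM in wild-type replicates 1 to 3 and at 7.95, 8.63, 10.1 and 11.7 CPM in heterozygous replicates 1 to 4. In homozygous replicates 1 to 4 it was at 14.0, 10.4, 6.82 and 6.63 CPM, so this genotype held both the highest and the lowest library. The pair of homozygous libraries in set 1 was above the pair in set 2. The homozygous log2 fold change was -0.0036 (95% confidence interval -0.58 to 0.58).

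Tyrobp (chr7:30413760-30417585), the signalling adaptor of many myeloid receptors, was at 22.7, 16.8 and 24.7 CPM in the wild type, at 28.3, 22.4, 20.1 and 25.0 CPM in the heterozygous and at 24.6, 21.7, 26.0 and 28.2 CPM in the homozygous libraries, each in the order of their replicate numbers. The ranges overlapped, and the homozygous log2 fold change was 0.23 (95% confidence interval -0.16 to 0.63, unadjusted p by edgeR 0.223). Aif1 (chr17:35170991-35176068), the calcium-binding protein also called IBA1, had 12 to 45 counts per library and is thus the least precise of the 10. It was at 2.69, 0.962 and 3.55 CPM in the wild type, at 3.06, 3.06, 2.37 and 2.57 CPM in the heterozygous and at 3.45, 1.85, 2.71 and 3.70 CPM in the homozygous libraries. Its homozygous log2 fold change was 0.29 with a 95% confidence interval of -0.56 to 1.15.

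Cd68 (chr11:69664213-69666153), a heavily glycosylated protein of the lysosomal membrane, was at 13.9, 19.2 and 14.0 CPM in wild-type replicates 1 to 3. It was at 23.9, 18.7, 19.6 and 31.3 CPM in heterozygous replicates 1 to 4 and at 25.5, 19.5, 21.6 and 19.9 CPM in homozygous replicates 1 to 4. All homozygous libraries were above all wild-type libraries, by a narrow margin (19.5 against 19.2 CPM), and heterozygous replicate 2 was below wild-type replicate 2. Heterozygous samples were 1.49-fold above wild type (log2 fold change 0.57, SE 0.21, 95% confidence interval 0.11 to 1.04, unadjusted p by edgeR 0.0202). The homozygous difference was 1.38-fold (log2 fold change 0.46, SE 0.21, unadjusted p by edgeR 0.0509). Both p-values depended on single libraries. The heterozygous p was 0.0736 without wild-type replicate 1, 0.0685 without wild-type replicate 3 and 0.059 without heterozygous replicate 4, and 0.0804 with the replicate block across the 11 libraries. The homozygous p by edgeR ranged from 0.0214 to 0.151 with single libraries left out and was under 0.05 in 3 of 11 cases, and by DESeq2 it was 0.0492.

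Lyz2 (chr10:117277331-117282321), the lysozyme of macrophages and neutrophils, had the widest relative spread between libraries (coefficient of variation 39.1%). It was at 201, 143 and 130 CPM in wild-type replicates 1 to 3, at 138, 101, 109.6 and 289 CPM in heterozygous replicates 1 to 4 and at 184, 157, 107 and 83.3 CPM in homozygous replicates 1 to 4. The highest library was 3.47 times the lowest, and the genotypes overlapped throughout. The homozygous log2 fold change was -0.25 (95% confidence interval -1.05 to 0.56, unadjusted p by edgeR 0.514), and its sign was opposite to that of C1q. Lyz2 lies on the chromosome of the deletion, 93.2 Mb from the Taar2 to Taar9 genes.

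Heterozygous replicate 4 and wild-type replicate 1, with the highest Lyz2, also had the highest levels of Ltf (lactoferrin, 552 and 623 CPM against 94.9 to 343 CPM elsewhere) and of the secretory gene Bpifb9b (25189 and 22591 CPM against 2979 to 14341 CPM elsewhere). Both genes are products of neutrophils or glands, and their part in the Lyz2 values was not tested. Lyz1, a near-identical copy of Lyz2, was counted at 2.41 to 13.4 CPM and was highest in heterozygous replicate 4. How reads shared by the copies were counted was not stated, which leaves the split between them uncertain.

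**Figure D2:**
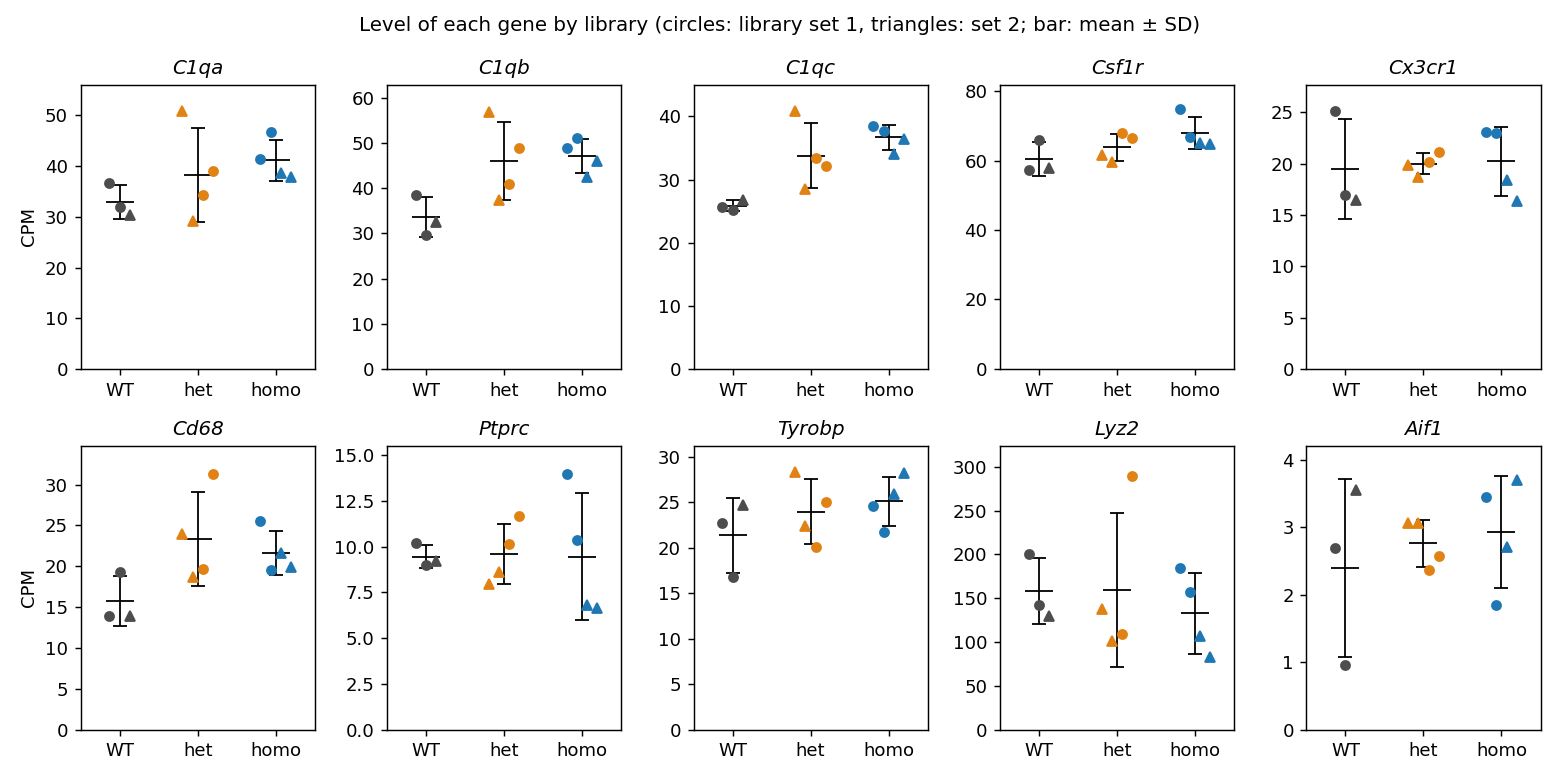
CPM of each of the 10 genes in each library by genotype (WT, het and homo for wild type, heterozygous and homozygous), with circles for library set 1, triangles for set 2, and the mean ± SD as a bar. For C1qa, C1qb, C1qc and Cd68 all 4 homozygous points lie above all 3 wild-type points.

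Across the 10 genes, no adjusted p was under 0.05 in the comparison of homozygous with wild-type samples by edgeR's quasi-likelihood F-test, and of all genes tested 0% passed. At an unadjusted p under 0.05, 2 of the 10 (C1qb and C1qc) were higher in homozygous samples, against 1.81% of all tested genes. The groups did not overlap, with all homozygous libraries above all wild-type libraries, for 4 of 10 genes (C1qa, C1qb, C1qc and Cd68), against 2.51% of all tested genes. The fold change was above 0 for 8 of 10, against 52.8% of all genes. The median log2 fold change was 0.26 over the 10 genes and 0.015 over all genes tested. DESeq2 called 0 of the 10 after adjustment (0.0371% of all genes) and 3 higher at an unadjusted p under 0.05 (1.71% of all genes).

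Wild-type and homozygous libraries of the same replicate number deviated together from their group means (r 0.35, 0.46 and 0.44 over all tested genes for numbers 1 to 3), and each such pair also lies in one library set. A fit of these 2 genotypes with the replicate number as a block was therefore added after the data were seen. In it 0 of the 10 genes passed after adjustment by edgeR, against 0.241% of all genes. At an unadjusted p under 0.05, 4 of the 10 were higher, against 3.3% of all genes, with log2 fold changes of 0.48 for C1qc (unadjusted p by edgeR 0.0068), 0.48 for C1qb (0.0084), 0.34 for C1qa (0.0342) and 0.49 for Cd68 (0.0361). With the replicate number as a block across the 11 libraries, 2 of the 10 were higher at the threshold, against 1.12% of all genes. Homozygous replicate 4 has no wild-type library of its number and adds nothing to the blocked difference.

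For heterozygous against wild-type samples, 0 of 10 passed after adjustment by edgeR, with 0% of all genes passing. At an unadjusted p under 0.05, 3 of 10 (C1qb, C1qc and Cd68) were higher, against 1.75% of all tested genes. C1qc was the 1 gene whose groups did not overlap, against 1.41% of all genes. The fold change was above 0 for 10 of 10, against 50.4% of all genes, and the median was 0.19 over the 10 genes and 0.0018 over all genes tested. DESeq2 called 0 of 10 after adjustment (0.0139% of all genes) and 3 higher at an unadjusted p under 0.05 (1.78% of all genes). The count at the unadjusted threshold was 1 without wild-type replicate 1, without wild-type replicate 2 or without heterozygous replicate 1. Over all genes, in either direction, that count was 372 with all libraries and 229 to 614 with single libraries left out. The count without overlap was 3 without wild-type replicate 1, wild-type replicate 2 or heterozygous replicate 2. Fewer libraries make separation of the groups easier, and the share of all genes was not computed for these sets. This rise can thus not be read as a result. Both comparisons used the same 3 wild-type libraries, so they are not independent of each other.

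Homozygous and heterozygous samples could not be separated for any of the 10 genes. By edgeR 0 of 10 passed after adjustment (0% of all genes) and 0 at an unadjusted p under 0.05 (against 0.32% of all genes higher at that threshold), and by DESeq2 0 (0.00927% of all genes) and 0 (0.278% of all genes higher). No gene had all homozygous above all heterozygous libraries, against 0.296% of all genes, and 1 did without heterozygous replicate 1. The share of all genes was not computed for that smaller set. The median log2 fold change was 0.050, and 7 of 10 were above 0 against 51.8% of all genes. The 95% confidence interval of the C1qc difference was -0.17 to 0.40 and that of C1qb -0.30 to 0.36. In the F-test over the 3 genotypes together, 0 of 10 passed after adjustment by edgeR (0% of all genes), 2 had an unadjusted p under 0.05 (C1qc 0.013 and C1qb 0.026), against 1.45% of all genes, and DESeq2 called 0 (0.0232% of all genes) and 3 (1.75% of all genes). The 2 became 1 without wild-type replicate 2 or wild-type replicate 3, sets for which the share of all genes was not computed.

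**Figure D3:**
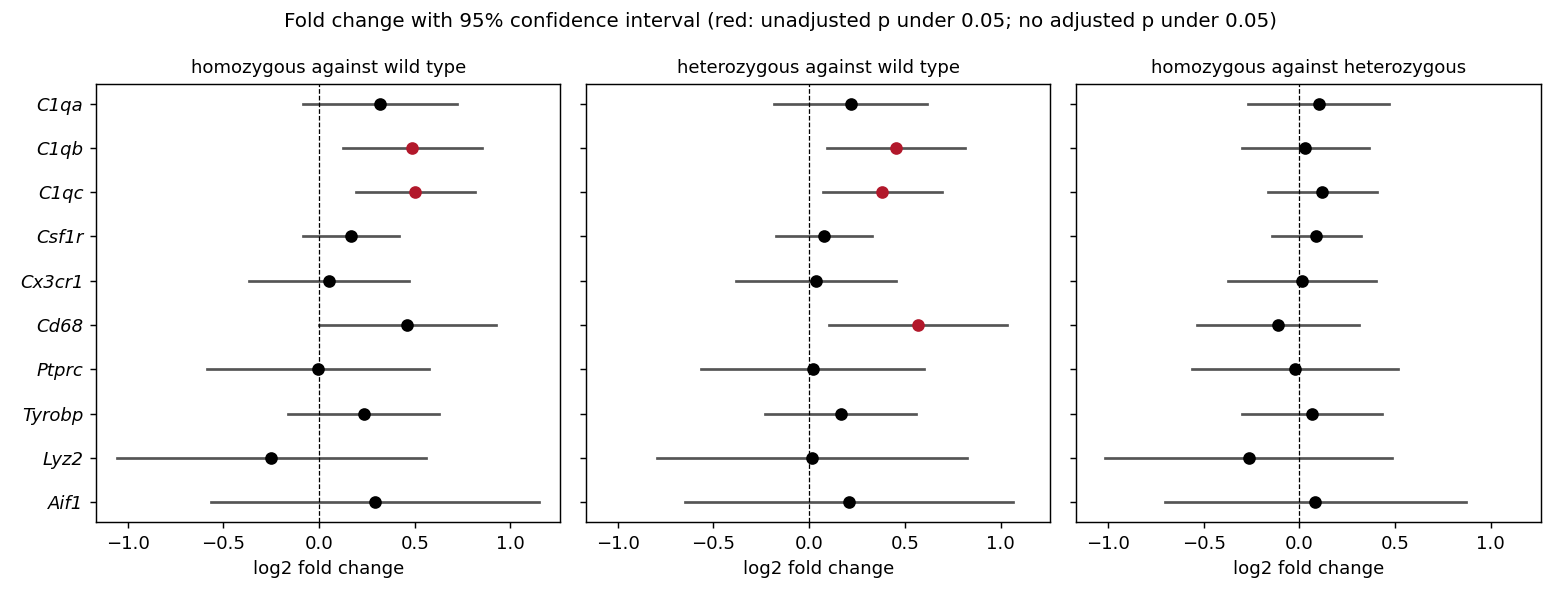
Log2 fold change of each gene with its 95% confidence interval from the edgeR fit in the 3 comparisons, with red points for an unadjusted p under 0.05. C1qb and C1qc lie above 0 against wild type in both knockout genotypes, and all intervals of homozygous against heterozygous samples include 0.

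The summed level of the 10 genes was 379 ± 47.5 CPM in the wild type (SD, n = 3), 421 ± 107 CPM in the heterozygous (SD, n = 4) and 405 ± 63.1 CPM in the homozygous samples (SD, n = 4), with overlap of all 3. Lyz2 made up 24.3% to 50.9% of this sum. Without Lyz2 the sum was 221 ± 9.98, 262 ± 30.0 and 272 ± 17.8 CPM. The homozygous libraries were then at 256 to 294 CPM and the wild-type libraries at 215 to 233 CPM, while the heterozygous ones spanned 226 to 293 CPM.

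The 10 genes did not vary as one block between libraries. Each gene was correlated with the mean standardised level of the other 9 within set 1 (n = 6), since the libraries formed 2 clusters and set 2 (n = 5) was too small. The highest values were those of C1qb (Pearson's r 0.91, exact permutation p 0.0153, adjusted over 10 relations 0.0741, Spearman's rho 0.83, exact permutation p 0.0583) and Ptprc (r 0.90, exact permutation p 0.0153, adjusted 0.0741, rho 0.94, exact permutation p 0.0167). Tyrobp had r 0.88 (exact permutation p 0.0222, adjusted 0.0741, rho 0.77, exact permutation p 0.103). Without the 2 libraries farthest from the median these r were 0.86, 0.85 and 0.60, so that of Tyrobp rested in part on those libraries. No relation passed after adjustment, and Lyz2 had the second lowest r, 0.42.

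Between pairs, C1qb and C1qc had r 0.86 in set 1 and 0.98 in set 2, C1qa and C1qb 0.88 and 0.94, and C1qa and C1qc 0.76 and 0.95, given as descriptions over 6 and 5 libraries that share their depth and dissection. C1qc and Lyz2 had r -0.022 and -0.014. Csf1r and Ptprc went from 0.60 in set 1 to -0.99 in set 2. The C1q genes thus varied together in both sets, while Csf1r and Ptprc turned in sign between them.

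**Figure D4:**
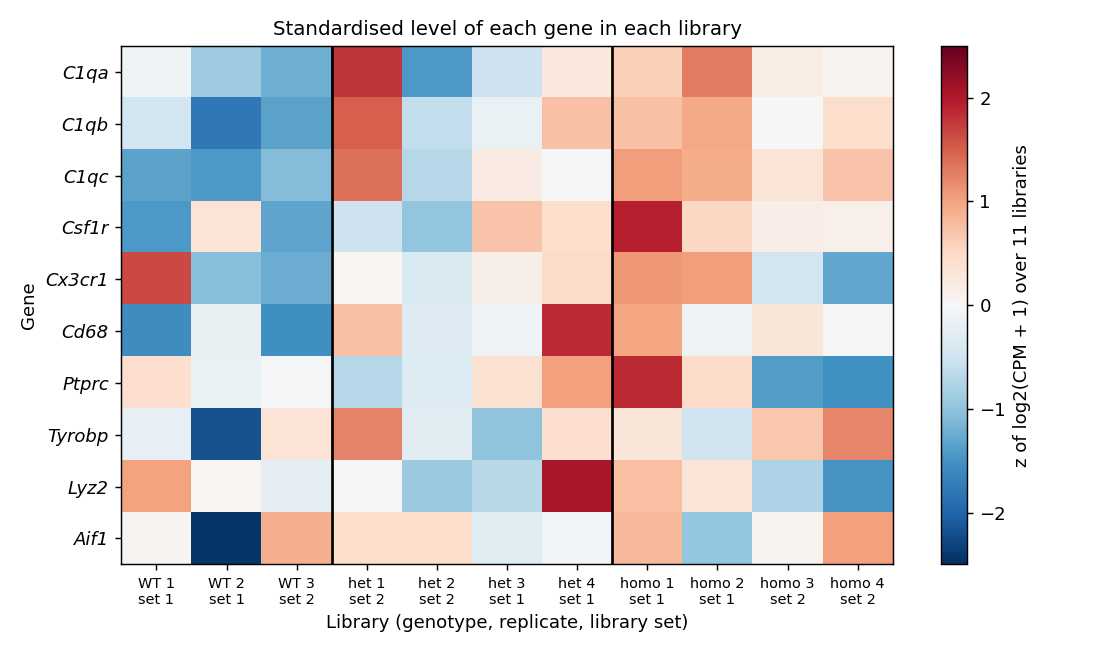
Standardised level (z of log2(CPM + 1) over 11 libraries) of each gene (row) in each library (column, with genotype, replicate and library set), from blue for low to red for high. The C1q rows are below 0 in all 3 wild-type columns and darkest red in heterozygous replicate 1, whereas Lyz2 is highest in heterozygous replicate 4.

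The genes outside the 10 whose log2(CPM + 1) was most like the mean standardised level of the 10 over the 11 libraries were Sertad3 (Pearson's r 0.93), Bin2 (0.92), Wfdc17 (0.92), F2 (0.90), Slc25a34 (0.90), Fcer1g (0.89), Gm14005 (0.89), Themis2 (0.88), Isg20 (0.87) and Ldlrad1 (0.87), ranked with no test. Within set 1 their r was 0.85 to 0.96. Fcer1g, the Fc receptor gamma chain, was the 1 of these that was also in a list of macrophage genes. Bin2 and Themis2 are known from leukocytes, and 6 of the 10 were low, with means of 0.859 to 3.92 CPM (Bin2, Wfdc17, F2, Slc25a34, Gm14005 and Themis2).

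The other genes of each pathway were counted by role, from lists drawn up with earlier results of these data known. By edgeR 0 of their genes passed after adjustment in any of the 3 comparisons. Of the 20 macrophage core genes, 3 were higher in homozygous than in wild-type samples at an unadjusted p under 0.05 (Fcer1g, Spi1 and Ctss, named after their values were seen), against 1.81% of all genes tested, and 0 were lower. Their median log2 fold change was 0.23. Ctss, the gene for cathepsin S, was at 22.5 to 29.1 CPM in the wild type and at 54.9, 47.3, 27.6 and 28.0 CPM in homozygous replicates 1 to 4, so the pair of set 1 was above and the pair of set 2 within the wild-type range. When the 11 libraries were left out in turn, the homozygous counts of these lists moved from 3 to between 1 and 5 for the core list, from 1 to 0 at the lowest for the CSF1 receptor axis and the TYROBP partners, and from 1 to between 0 and 2 for complement. They moved from 3 to 1 at the lowest for lysosomal genes, from 2 to 0 at the lowest for MHC class II and from 4 to between 1 and 5 for inflammatory mediators, and libraries of all 3 genotypes did so. Over all genes the count in either direction, 500 with all libraries, then ranged from 317 to 721. With the replicate block across the 11 libraries the counts were 1 for the core list, 0 for the CSF1 receptor axis, complement, the TYROBP partners and MHC class II, 1 for lysosomal genes and 5 for the mediators, while the count over all genes in either direction went from 500 to 286. With the block in the fit of the 2 genotypes the count over all genes was 1020, and the list counts were 5 for the core list, 0 for the CSF1 receptor axis, 2 for complement, 1 each for the TYROBP partners and MHC class II, 3 for lysosomal genes and 2 for the mediators. RLE scaling left 1 core gene and 0 TYROBP partners, and the library set as covariate gave 7 core genes, while the counts over all genes were 489 and 1132.

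Among 9 genes of the CSF1 receptor axis, 1 was higher in homozygous and 2 in heterozygous samples at an unadjusted p under 0.05, against 1.81% and 1.75% of all genes. The heterozygous count was 0 with the replicate block, in the fit of the 2 genotypes, without wild-type replicate 3 or without heterozygous replicate 1, and it kept its value of 2 in 10 of 20 alternatives. Over all genes the heterozygous count in either direction was 372 in the main fit and 229 to 754 over the alternatives. Spi1, which encodes PU.1 and is in the core list too, was at 8.99, 9.62 and 7.43 CPM in the wild type, at 15.6, 11.2, 9.38 and 12.7 CPM in the heterozygous and at 11.5, 9.92, 12.9 and 14.8 CPM in the homozygous libraries, all 4 of the latter above the wild type. Its log2 fold change was 0.50 in both knockout genotypes (SE 0.22, unadjusted p by edgeR 0.0391 and 0.0408). The 3 most abundant genes of this axis had log2 fold changes in homozygous samples of 0.16 (Runx1), 0.14 (Cebpa) and 0.080 (Csf2ra), none past the unadjusted threshold. Of 12 further complement genes tested, 0 were higher and 1 was lower. That gene was C1s1, which encodes the protease C1s that C1q activates, which differed from wild type by -0.31 on the log2 scale in homozygous samples (SE 0.12, edgeR p without adjustment 0.0248) and by -0.45 in heterozygous samples (SE 0.12, edgeR p without adjustment 0.0027). Lower genes at that threshold made up 1.21% and 0.495% of all genes tested. C1s1 was at 42.6 to 49.3 CPM in the wild-type, 30.9 to 35.6 CPM in the heterozygous and 34.6 to 37.6 CPM in the homozygous libraries, so both knockout ranges were below the wild type. The complement regulators Cd55 and Serping1 had homozygous log2 fold changes of -0.20 and 0.32, neither past the unadjusted threshold.

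Of 8 tested partners of TYROBP, 1 (Fcer1g) was higher in homozygous samples at an unadjusted p under 0.05, against 1.81% of all genes, with a log2 fold change of 0.39 (SE 0.18). Plcg2 and Syk, which relay the signal, had -0.030 and 0.11. In the fractalkine axis the ligand gene Cx3cl1 and its proteases Adam10 and Adam17 had 0.19, -0.025 and -0.071 in homozygous samples. Of 9 uptake receptors and bridging molecules tested, 0 passed the unadjusted threshold by edgeR or DESeq2, and the most abundant were Mfge8, Itgb5 and Gas6, with homozygous log2 fold changes of 0.22, 0.28 and 0.026. The homozygous count was 2 with the library set as covariate, without wild-type replicate 2 or without wild-type replicate 3, and 1 with Xist as covariate or with the block in the fit of the 2 genotypes. The heterozygous count was 2 with Xist as covariate and 1 without wild-type replicate 2. Over all genes the homozygous count in either direction was 500 in the main fit and 286 to 1132 over the alternatives. The heterozygous count over all genes was 372 and 229 to 754, so these list counts are not comparable with the main fit.

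Of 14 lysosomal genes, 3 were higher in homozygous samples at the unadjusted threshold (Lgmn, Npc2 and Gpnmb, named after their values were seen), against 1.81% of all genes, and 0 lower. Lgmn, an asparaginyl endopeptidase, was at 163 to 202 CPM in the wild type, at 224 to 304 CPM in the heterozygous and at 217 to 294 CPM in the homozygous libraries, so both knockout ranges lay above the wild type. Its log2 fold change was 0.45 in both (SE 0.16, unadjusted p by edgeR 0.0151 and 0.0152). The most abundant of the list, Psap, Ctsd and Lamp1, had homozygous log2 fold changes of 0.068, 0.31 and -0.037. Of 15 pan-leukocyte genes, 0 passed the unadjusted threshold in either comparison with the wild type by edgeR or DESeq2. In homozygous samples the count was 2 with the library set as covariate or without wild-type replicate 1, and 1 with Xist as covariate, in the fit of the 2 genotypes or without heterozygous replicate 1, heterozygous replicate 4 or homozygous replicate 3. In heterozygous samples it was 2 without wild-type replicate 1 and 1 without heterozygous replicate 4. The counts over all genes also moved over the alternatives, from 286 to 1132 in homozygous and from 229 to 754 in heterozygous samples. These list counts are thus not comparable with the 0 of the main fit. Lcp1, Laptm5 and Lyn, the most abundant of them, had -0.17, 0.16 and 0.073 in homozygous samples, and the pan-leukocyte sums overlapped (309 to 428, 310 to 402 and 340 to 417 CPM in wild type, heterozygous and homozygous).

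Of 6 MHC class II genes, 2 (H2-DMa and H2-Eb1, the latter named after its values were seen) were higher in homozygous samples at the unadjusted threshold, against 1.81% of all genes. The fold change was above 0 for 6 of 6, against 52.8% of all genes. The sum of the list was 25.5 to 36.8 CPM in the wild type and 36.8 to 46.9 CPM in the homozygous libraries, so the ranges met at their ends. Cd74, its most abundant gene, was at 8.0 to 17.1 CPM in the wild type and 12.8 to 17.4 CPM in the homozygous libraries, with overlap.

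Of 9 inflammatory mediators tested, 4 were higher in homozygous samples at the unadjusted threshold (Ptgs2, Cxcl1, Tnf and Il6, the latter pair named after their values were seen), against 1.81% of all genes, with large differences among the homozygous libraries. Cxcl1, Tnf and Il6 were at 0 to 0.641 CPM in the wild-type libraries and thus passed the filter on low counts only through knockout libraries, so their part of this count is a description. With a filter of 10 counts in every library the count was 1, and it was also 1 in the fit of the 2 genotypes. Ptgs2, which encodes the inducible cyclooxygenase, was at 5.28 to 6.57 CPM in the wild type, at 46.2 and 34.6 CPM in homozygous replicates 1 and 2 and at 4.33 and 6.54 CPM in replicates 3 and 4. In heterozygous replicates 1 to 4 it was at 29.2, 16.0, 44.6 and 7.49 CPM. The chemokine gene Cxcl1 was at 11.7 and 51.4 CPM in homozygous replicates 1 and 2 and at 0 to 1.02 CPM in the other libraries, and Il1b reached 17.6 CPM in homozygous replicate 1. Without homozygous replicate 1 or homozygous replicate 2 the count of mediators under the threshold was 1. Over all genes, in either direction, it was 721 without the former and 317 without the latter, against 500 with all libraries. The 4 libraries with the highest Ptgs2 (heterozygous replicates 1 and 3, homozygous replicates 1 and 2) had C1qc at 40.9, 33.4, 38.5 and 37.7 CPM, and homozygous replicates 3 and 4 had C1qc at 34.0 and 36.4 CPM. The part of inflammation in these values was not tested.

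The osteoclast genes, from cells of the monocyte lineage that a dissection with bone can hold, summed to 721 CPM in wild-type replicate 2, 759 CPM in heterozygous replicate 4 and 518 CPM in homozygous replicate 3, and to 202 to 381 CPM in the others. Mmp9, Ctsk and Acp5 led this list, with all 3 highest in wild-type replicate 2 or heterozygous replicate 4. The neutrophil and monocyte list summed to 675 CPM in wild-type replicate 1 and 605 CPM in heterozygous replicate 4, against 146 to 383 CPM in the others, and Ltf made up most of it. The mean of the sum was 397 ± 266 CPM in the wild type (SD, n = 3), 329 ± 189 CPM in the heterozygous (SD, n = 4) and 270 ± 111 CPM in the homozygous samples (SD, n = 4). Ltf had means of 353 CPM in the wild type and 199 CPM in the homozygous samples, with a log2 fold change of -0.83 (unadjusted p by edgeR 0.196). Of the 9 tested genes of the list, 7 had a homozygous fold change above 0 (52.8% of all genes did), with a median of 0.47 on the log2 scale, so the sum and most of its genes differed in sign. At the unadjusted threshold 1 was higher and 0 were lower. That gene, S100a9, was at 10.3 to 26.2 CPM in the wild type and 24.5 to 58.6 CPM in the homozygous libraries (log2 fold change 0.93, unadjusted p by edgeR 0.0301). Heterozygous replicate 4 had the highest skeletal muscle sum and the highest Cd68 and Lyz2. The part of these cells in the values of Cd68 and Lyz2 was not tested. Mature sensory neuron genes summed to 1218 to 2135 CPM in the wild type and 1175 to 1509 CPM in the homozygous libraries, with 6 of 6 fold changes below 0, where 52.8% of all genes were above 0, and none past the unadjusted threshold by edgeR.

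**Figure D5:**
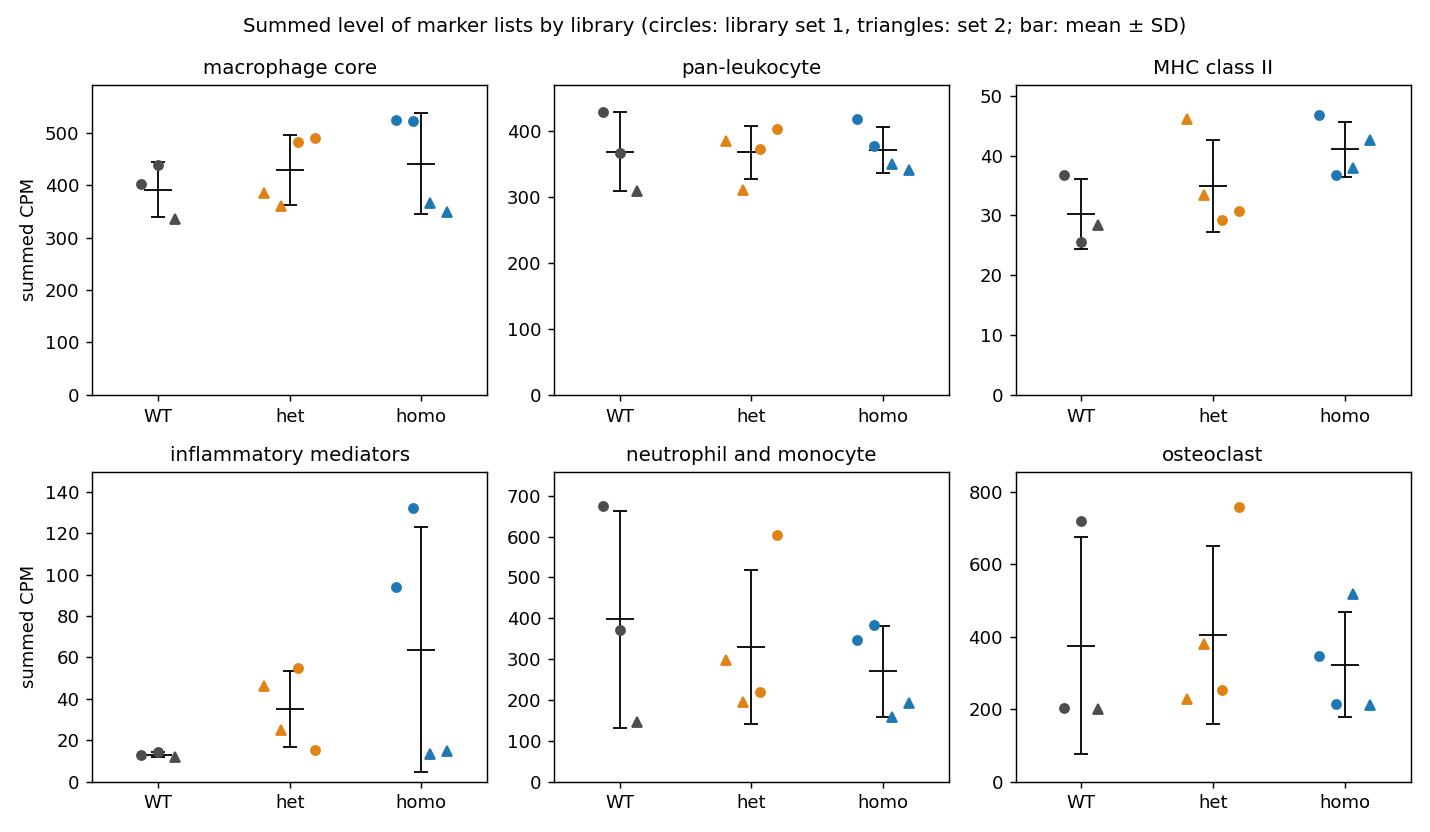
Summed CPM of 6 marker lists in each library by genotype, with circles for library set 1, triangles for set 2, and the mean ± SD as a bar. Inflammatory mediators are at 94.1 and 132 CPM in homozygous replicates 1 and 2 and at 11.9 to 54.7 CPM elsewhere, and osteoclast genes are highest in 1 library of each genotype, at 721, 759 and 518 CPM.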

How the data were processed

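Whole-MOE RNA was extracted with a DNase step, and directional libraries were made from polyA-selected RNA, per the labels. The submitters' processing notes name the mm10 (GRCm38) assembly, DESeq2 (version 1.20.0), HISAT2 (version 2.1.0), Trimmomatic (version 0.36) and featureCounts of the Subread package (version 1.6.2). The authors deposited raw read counts per gene. A second deposited table holds a normalised signal, each count over the size factor of its library. Which annotation and strand setting were used, and how multi-mapping reads were handled, is not given in the sources used here. Of the columns, 0 belonged to no sample.

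All tests used the raw counts. Libraries were scaled by TMM and genes kept by filterByExpr, and a quasi-likelihood model of the 3 genotypes was fitted over all 11 libraries in R (version 4.3.3) using edgeR (version 4.0.16). P-values were adjusted by the Benjamini-Hochberg method over all 16574 genes, with a threshold of 0.05. The script was tested on simulated data. CPM were computed on the TMM-scaled library sizes, and errors are SD over samples unless stated. Correlations used log2(CPM + 1) and two-sided permutation tests, exact within library set 1 and with 1e+05 sampled permutations over all 11 libraries. Positions and exon lengths came from GENCODE M21 (GRCm38), and promoter windows from RefSeq. Library sets were the sign of the first principal component of genes outside all lists. No pair of libraries of a genotype was identical or within sampling noise.

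The members and gene lists were chosen with earlier results of these data known. Named were the 10 genes, the 3 genes with the highest mean CPM of each role list and any gene past the adjusted threshold, and the 10 genes most alike, and all other named genes were chosen after their values were seen. A gene that this rule would name is not reported here. Alternatives were DESeq2 (version 1.42.0), RLE scaling, other filters, a replicate block (all genotypes, or the 2 genotypes with same-numbered libraries that deviated together), the library set or the Xist level as covariate, the 2 genotypes alone, the genes of the normalised table, and each library left out.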

Additional observations from a re-analysis of the deposited data

Results flagged for a closer look

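Among 24 groups of 4 libraries (each of the 10 genes, their sum and the C1q sum in the heterozygous and homozygous samples), 0 had a library whose gap to its nearest neighbour passed the 95% critical value of Dixon's test.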

How the results depend on the processing

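No call after adjustment changed: 0 of the 10 genes passed in the 3 comparisons and over the 3 genotypes together in every alternative run. Of 610 recomputed fold changes, 572 kept their direction and 38 turned, all of them for genes whose interval included 0. The counts at an unadjusted p under 0.05 were less stable, and the cause was not tested. With the Xist level as a covariate, chosen after the data were seen, they were 1 in each of both knockout genotypes compared with wild type and 1 over the 3 genotypes together. With single libraries left out, they ranged from 1 to 3 for heterozygous against wild type and from 1 to 3 for the 3 genotypes together. Over all genes the count in either direction also moved over the alternatives. It was 286 to 1132 for homozygous and 229 to 754 for heterozygous against wild type (500 and 372 in the main fit). For the 3 genotypes together it was not computed in these fits. A moved count is thus no result about the 10 genes alone. With single libraries left out, the counts of genes without overlap ranged from 1 to 3 for heterozygous against wild type and from 0 to 1 for homozygous against heterozygous samples. The share of all genes was not computed for these sets. Depth limits Aif1 most, with 12 to 45 counts a library.

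The labels do not say what a replicate number marks. Deviations of same-numbered libraries correlated at 0.35 to 0.46 between wild-type and homozygous samples and were negative in every pair with a heterozygous library (-0.61 to -0.25). Wild-type replicate 2 correlated best with the homozygous library of its own number, and wild-type replicates 1 and 3 with homozygous replicates 2 and 4 of their library set (0.44 and 0.49). With the replicate block in the fit of the 2 genotypes, homozygous against wild type, 0 of the 10 passed after adjustment. The count at an unadjusted p under 0.05 was 4, with 3.3% of all genes higher at that threshold. The log2 fold change of Ptprc turned to 0.063. Over all genes 39 passed after adjustment in that fit, against 0 without the block, and none was among the 10. With the replicate number as a block over all 3 genotypes, 0 of the 10 passed after adjustment. The count at an unadjusted p under 0.05 was 2 for homozygous against wild type, with 1.12% of all genes higher at that threshold. For heterozygous against wild type it was 1, and the log2 fold change of Lyz2 turned to -0.15. That of Ptprc in homozygous against wild-type samples turned to 0.023 with the library set and to 0.34 with the Xist level as covariate.

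With single libraries left out, log2 fold changes against wild type ranged as follows in homozygous samples: Ptprc from -0.26 to 0.13, Cx3cr1 from -0.055 to 0.28 and Aif1 from -0.088 to 0.70. In heterozygous samples the ranges were -0.087 to 0.099 for Ptprc, -0.071 to 0.26 for Cx3cr1, -0.17 to 0.61 for Aif1 and -0.44 to 0.23 for Lyz2. Between homozygous and heterozygous samples they were -0.010 to 0.27 for C1qa, -0.055 to 0.15 for C1qb, -0.055 to 0.10 for Cx3cr1, -0.20 to 0.040 for Cd68, -0.28 to 0.11 for Ptprc, -0.0091 to 0.16 for Tyrobp, -0.46 to 0.17 for Lyz2 and -0.046 to 0.24 for Aif1. The summed level of the 10 genes was 106.8% of wild type in homozygous samples and 126% among the libraries with Xist above 100 CPM, where it rests on homozygous replicate 1 alone. In heterozygous samples it was 111%, 94.5% among those libraries, where it rests on heterozygous replicate 3 alone, and 98.2% without heterozygous replicate 4. Over all 11 libraries 3 genes (C1qa, C1qb and C1qc) correlated with the other 9 by Pearson's r after adjustment, and this was 1 with the deposited signal, 1 without the 2 farthest libraries and 0 within library set 1. By Spearman's rho C1qc did not pass over all 11 libraries (adjusted permutation p 0.0697). With the deposited signal C1qa, C1qb and Cd68 passed by rho (adjusted permutation p 0.0133, 0.0114 and 0.0303).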
